A study of Homo sapiens with 11 samples.

Results

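The genes described here encode the machinery of the DNA replication fork: the origin recognition complex, the origin firing kinase, the GINS complex, the replicative polymerases, the sliding clamp and its loader, the enzymes of Okazaki fragment maturation, replication protein A, the chromatin assembly factor and the fork protection proteins. They were 41 genes chosen by symbol and found by matching the Ensembl ID of each row of the count table, which held 57736 gene IDs. All 41 were found and all were among the 13980 genes with enough counts to test, so no member was lost to the filter on low counts. RNA was sequenced from HEC50B, a line of endometrial cancer cells, on day 4 of treatment. R183W cells are the parental line, named for the substitution it carries in PPP2R1A, which encodes the scaffold of PP2A phosphatase. WT cells are the isogenic line in which CRISPR returned PPP2R1A to wild type. The labels do not say whether the WT line is 1 clone. Each line was given vehicle or WM1119 at 50 µM, a compound that inhibits the histone acetyltransferase KAT6A, with 3 libraries in each of R183W vehicle, WT vehicle and WT WM1119 and 2 in R183W WM1119.

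At a replication origin, the origin recognition complex directs loading of the MCM helicase, and the kinase CDC7 with its activator DBF4 then triggers firing, when GINS and CDC45 join MCM to form the active helicase. Polymerase alpha with primase lays down primers, the RFC clamp loader places PCNA around the DNA, and polymerases epsilon and delta extend the leading and lagging strands, while FEN1, DNA2, RNase H2 and LIG1 process and join Okazaki fragments. Many of these genes are transcribed under E2F control as cells enter S phase, so their RNA is commonly read as part of a proliferation program.

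Library totals ran from 2609922 to 6065149 counts, and levels are given as CPM, counts put on a common scale by library size and TMM factors. A floor of 3 counts equals 0.495 CPM in the deepest library and 1.24 CPM in the shallowest, WT WM1119 library 3. That library stood apart, with correlations of log CPM across genes of 0.917 and 0.937 with the others of its group, against 0.957 to 0.975 for the other replicate pairs. In it, 20 of the 41 replication genes lay below both other libraries of the group, 12 above both and 9 between. The 9 that lay more than 1.5-fold below were ORC5, GINS2, PRIM1, PRIM2, PCNA, RFC4, RFC5, FEN1 and RPA1, and GINS1, POLA1 and RNASEH2A lay more than 1.5-fold above. PPP2R1A itself was higher in R183W than in WT cells under vehicle (log2 difference 0.56, SE 0.17, edgeR adjusted p = 0.0463), although gene counts do not show the substitution. The epithelial markers EPCAM, KRT8 and KRT18 were present in every library, KRT19 and CDH1 lay at or near 0, and of the endometrial lineage genes PAX8, HOXA10 and FOXA2 were present while PGR and SOX17 had 0 counts throughout. Endothelial markers summed to at most 0.856 CPM and leukocyte markers to at most 11.2 CPM. The fibroblast list summed to 729 to 936 CPM in R183W vehicle, 565 to 568 in R183W WM1119, 613 to 695 in WT vehicle and 843 to 896 in WT WM1119 libraries. Most of that was COL1A1, whose interaction was -1.02 (SE 0.17, edgeR adjusted p = 0.0252), while the fibroblast genes DCN and COL1A2 were at 0 apart from 0.762 CPM of COL1A2 in WT vehicle library 2. COL1A1 was higher in R183W cells under vehicle (0.44, edgeR adjusted p = 0.0205), fell with WM1119 in R183W cells (-0.56, edgeR adjusted p = 0.0241) and rose in WT cells (0.46, edgeR adjusted p = 0.0354). PDGFRB followed another order, at 3.46 to 7.71 CPM in R183W vehicle, 0.24 to 0.302 in R183W WM1119, 29.2 to 52.2 in WT vehicle and 14.0 to 30.5 in WT WM1119 libraries. It was lower in R183W cells under vehicle (-2.74, edgeR adjusted p = 0.000132), and its change of -0.75 with WM1119 in WT cells did not pass (edgeR adjusted p = 0.174). LUM stayed at or below 4.14 CPM, with its highest values in WT vehicle libraries. The part of these markers in the results on the replication genes was not tested.

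The summed level of the replication genes followed a crossed pattern over the 4 groups. It was 1768 to 1849 CPM in R183W vehicle and 1428 to 1440 CPM in R183W WM1119 libraries, but 1438 to 1457 CPM in WT vehicle and 1860 to 1931 CPM in WT WM1119 libraries. A sum weighs the abundant genes most. The median log2 CPM of the members was 4.91 to 5.06 in R183W vehicle and 4.41 to 4.49 in R183W WM1119 libraries. In WT cells the medians overlapped, at 4.52 to 4.84 with vehicle and 4.83 to 5.14 with WM1119, the lowest of the latter being library 3. In RNA from whole cultures, fewer cells transcribing a gene and less RNA per cell cannot be told apart. Of the 41 genes, 26 had a negative change with WM1119 in R183W cells and a positive one in WT cells, 7 were negative in both, 6 were positive in both, and the origin kinase activator DBF4 and the nuclease DNA2 showed the opposite pair of signs. Signs count members that did not pass the test as well as those that did.

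**Figure D1:**
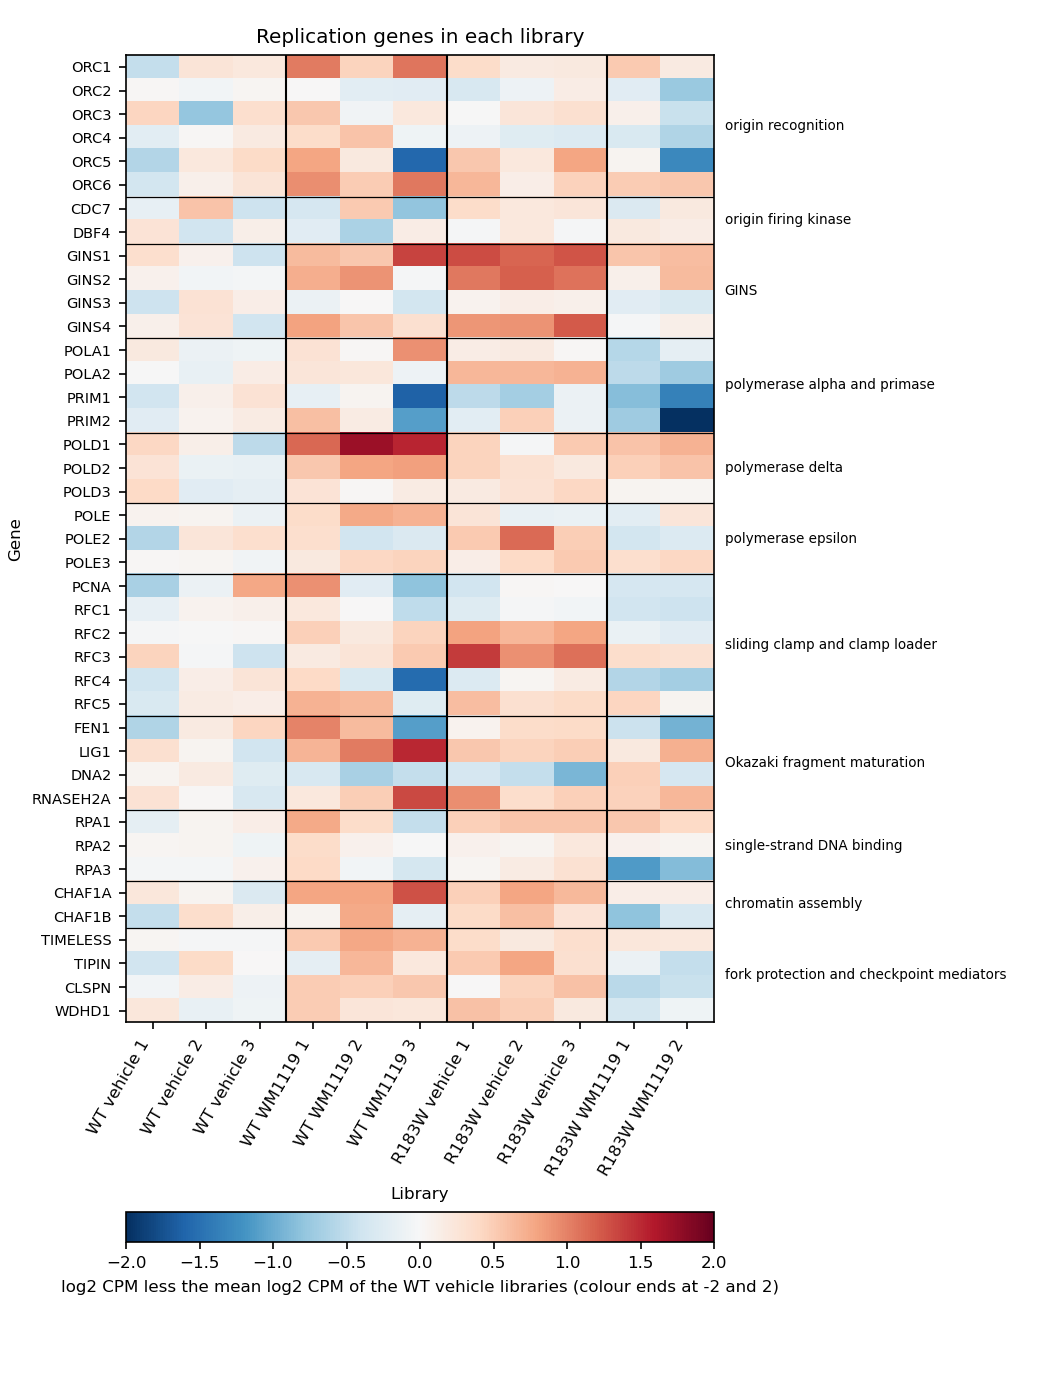
Log2 CPM of each of the 41 replication genes (rows, by role) in each library (columns), less the gene's mean log2 CPM in the WT vehicle libraries; red is higher, blue lower, and colours end at -2 and 2. R183W vehicle columns and those of WT WM1119 libraries 1 and 2 are mostly red. WT WM1119 library 3 is a mix of red and blue, with PCNA, FEN1, RFC4, PRIM1, PRIM2 and ORC5 among its blue rows.

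The interaction asks whether the inhibitor effect in R183W cells differed from that in WT cells, computed as the former less the latter. The means of the 4 groups were fitted with edgeR's quasi-likelihood test, and a gene was called at a Benjamini-Hochberg adjusted p under 0.05 over all genes tested. CLSPN, POLA2, CHAF1A and RFC2 were called, all 4 negative, among 41 replication genes; of all genes tested 0.193% were called negative and 0.093% positive. CLSPN encodes claspin, which relays the replication checkpoint signal, POLA2 the accessory subunit of polymerase alpha, CHAF1A the large subunit of the chromatin assembly factor and RFC2 a subunit of the clamp loader. The interaction was below 0 for 39 of the 41 genes, and DBF4 and DNA2 were the exceptions. Its median was -0.75 on the log2 scale, against -0.01 over all genes tested. At an unadjusted p under 0.05, 19 members were negative and DNA2 was positive. Of the 13980 genes tested, 727 were negative and 573 positive at that threshold. By edgeR none of the 41 was called when the fit lacked replicate 2 or 3 of R183W vehicle, replicate 2 or 3 of WT vehicle, either replicate of R183W WM1119 or replicate 2 of WT WM1119, with 16 to 19 negative at an unadjusted p under 0.05. By the same test 1 was called without replicate 1 of WT vehicle, 2 without replicate 1 of R183W vehicle, 3 without replicate 1 of WT WM1119 and 8 without replicate 3 of WT WM1119. DESeq2 called 9 and edgeR without a filter on low counts 11.

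E2F and NF-Y sites are textbook features of replication gene promoters. Of members given full values and matched to a RefSeq promoter, CLSPN, POLA2, CHAF1A, RFC2, GINS1 and GINS2 had the smallest unadjusted interaction p. The promoters of these genes are shown, although GINS1 and GINS2 are described further on. Each is the 250 bases before the RefSeq start on GRCh38.p14, written 5′ to 3′ on the gene's strand, with E2F spellings and CCAAT boxes on either strand in capitals. CLSPN lies on the minus strand at chr1:35769979-35770228, POLA2 on the plus strand at chr11:65261712-65261961, CHAF1A on the plus strand at chr19:4402390-4402639, RFC2 on the minus strand at chr7:74254400-74254649, GINS1 on the plus strand at chr20:25407423-25407672 and GINS2 on the minus strand at chr16:85688955-85689204.
CLSPN: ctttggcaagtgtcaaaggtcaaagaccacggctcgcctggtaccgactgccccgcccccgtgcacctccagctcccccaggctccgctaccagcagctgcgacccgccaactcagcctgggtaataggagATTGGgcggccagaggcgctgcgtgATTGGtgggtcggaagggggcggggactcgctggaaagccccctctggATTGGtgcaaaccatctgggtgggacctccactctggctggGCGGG
POLA2: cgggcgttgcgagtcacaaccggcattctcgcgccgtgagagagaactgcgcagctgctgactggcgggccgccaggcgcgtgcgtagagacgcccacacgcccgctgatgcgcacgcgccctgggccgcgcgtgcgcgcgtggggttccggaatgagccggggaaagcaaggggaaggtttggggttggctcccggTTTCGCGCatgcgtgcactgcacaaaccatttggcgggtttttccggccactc
CHAF1A: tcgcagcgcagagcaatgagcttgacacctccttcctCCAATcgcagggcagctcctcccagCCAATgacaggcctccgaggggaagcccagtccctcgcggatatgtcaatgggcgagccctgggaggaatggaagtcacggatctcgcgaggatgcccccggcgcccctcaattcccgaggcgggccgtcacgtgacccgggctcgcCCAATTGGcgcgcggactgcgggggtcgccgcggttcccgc
RFC2: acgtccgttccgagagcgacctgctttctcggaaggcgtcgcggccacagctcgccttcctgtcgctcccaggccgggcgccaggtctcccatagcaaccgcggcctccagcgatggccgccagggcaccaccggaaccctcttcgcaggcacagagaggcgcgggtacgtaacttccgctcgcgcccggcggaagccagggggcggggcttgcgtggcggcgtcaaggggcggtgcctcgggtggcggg
GINS1: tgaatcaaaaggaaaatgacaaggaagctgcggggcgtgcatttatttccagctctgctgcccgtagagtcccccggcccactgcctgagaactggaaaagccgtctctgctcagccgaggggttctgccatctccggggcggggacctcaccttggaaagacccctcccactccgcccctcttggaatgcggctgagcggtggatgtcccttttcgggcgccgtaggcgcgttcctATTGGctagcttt
GINS2: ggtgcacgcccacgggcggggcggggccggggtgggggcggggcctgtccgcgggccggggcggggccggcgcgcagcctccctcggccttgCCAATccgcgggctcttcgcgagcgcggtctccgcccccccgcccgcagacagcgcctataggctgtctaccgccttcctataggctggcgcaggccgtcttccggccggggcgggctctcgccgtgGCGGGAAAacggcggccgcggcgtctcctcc

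The E2F spellings searched were TTTCCCGC, TTTCGCGC, TTTGCCGC and TTTGGCGC, the NF-Y spelling was CCAAT, and the cell cycle homology region (CHR) was TTTGAA or TTCGAA, all on both strands of 300 bases from 250 before to 50 after the start. CLSPN held an E2F spelling at bases -5 to 3, which runs past the last base shown, with CCAAT boxes beginning at -119, -94 and -46. POLA2 held an E2F spelling at -53 to -46 and no CCAAT box. CHAF1A held 4 CCAAT boxes on the 2 strands, of which a pair beginning at -41 and -38 overlap, and no E2F spelling. RFC2 held none of these letters in this window. GINS1 held an E2F spelling at 6 to 13, after the bases shown, and a CCAAT box at -13 to -9, and GINS2 held an E2F spelling at -31 to -24 and a CCAAT box at -158.

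RefSeq promoters matched 36 of the 41 symbols, with 44 promoters in all; GINS4, POLD3, DNA2, RPA2 and RPA3 had no match. An E2F spelling was in 14 of the 44 promoters (31.8%), against 4.88% of the promoters matched to genes tested and 3.31% of all promoters in the table. The 14 genes with one were ORC3, CDC7, GINS1, GINS2, GINS3, POLA1, POLA2, POLE, POLE2, PCNA, RFC3, LIG1, TIPIN and CLSPN. CCAAT was in 20 promoters (45.5%, against 34.9% for genes tested), both were in 7 (15.9%, against 1.90%), and a CHR spelling was in 2 (4.55%, against 11.8%). A match describes these letters and is not evidence of a bound site.

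**Figure D2:**
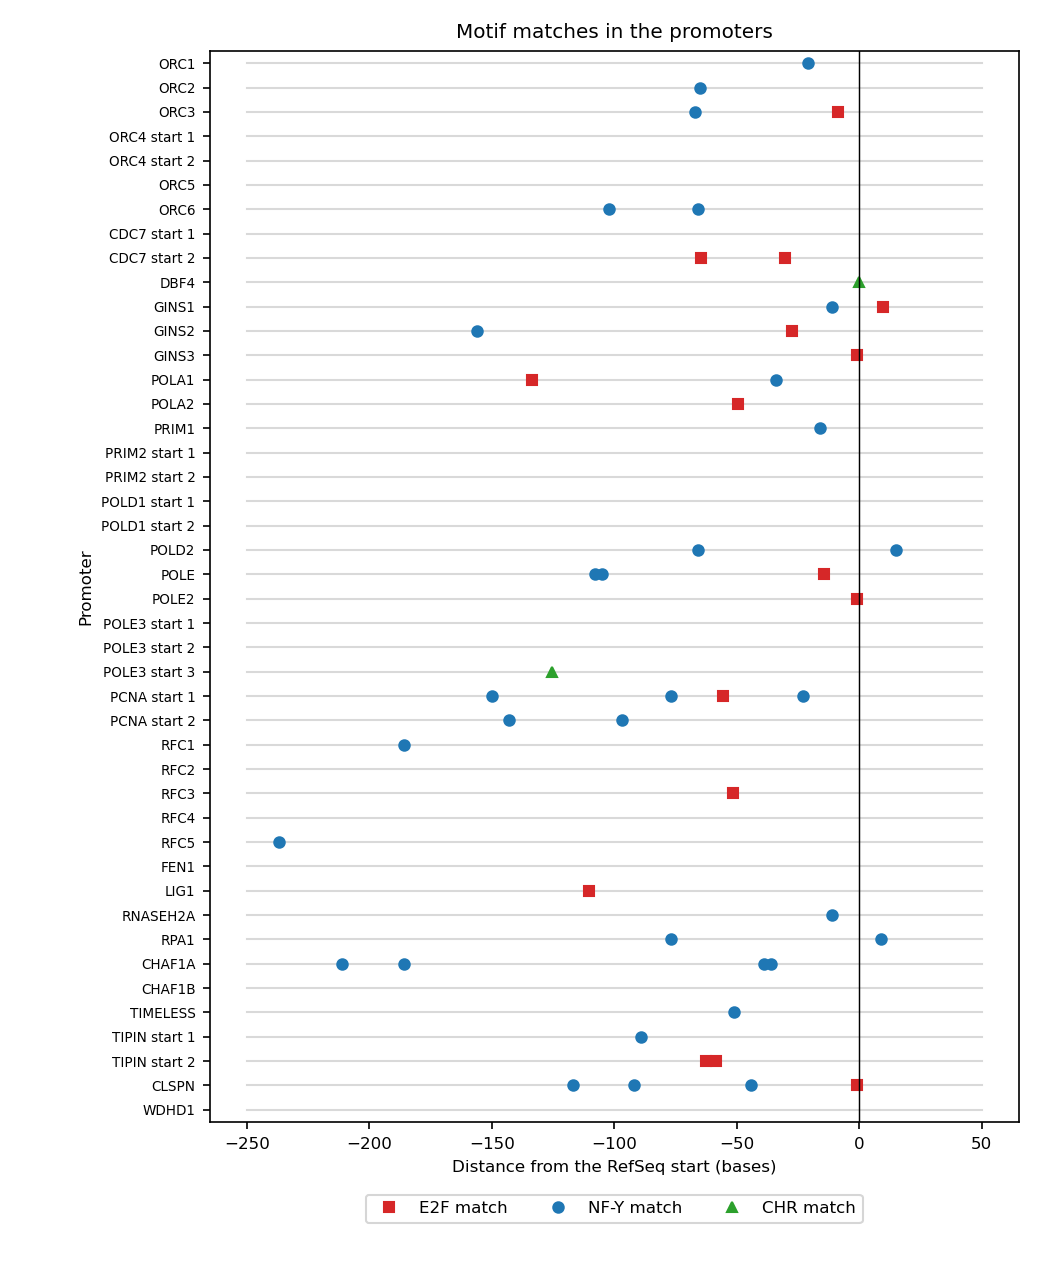
Positions of E2F, NF-Y and CHR spellings in the 44 RefSeq promoters of 36 replication genes (rows, by role), as distance in bases from the start; several starts of a gene have a row each. E2F spellings are seen in 14 rows and NF-Y spellings in 20.

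In R183W cells 5 replication genes fell with WM1119 and none rose. They were POLA2, RPA3, the small subunit of replication protein A, RFC2, CLSPN and GINS4, a GINS subunit; 2.65% of all genes tested were called lower and 1.99% higher. Group means went from 48.0 to 19.7 CPM for POLA2, from 56.9 to 25.4 for RPA3 and from 37.5 to 19.6 for RFC2. The 41 genes had a median log2 change of -0.36, against -0.00 over all genes tested. At an unadjusted p under 0.05, 14 of the 41 were lower, as were 1395 of the 13980 genes tested. Both WM1119 libraries lay below all 3 vehicle libraries for 24 members (23.6% of all genes tested) and above them for POLD1 and POLD2 (23.2%). Every member of GINS, polymerase alpha and primase, the clamp and clamp loader, replication protein A, chromatin assembly and fork protection had a negative change, with medians from -0.97 for polymerase alpha and primase to -0.06 for replication protein A, whereas polymerase delta had a median of 0.21 and polymerase epsilon of 0.01. POLA2 was called with any 1 library left out, and was the 1 member called when either replicate of R183W WM1119 was left out. The count was 3 without replicate 2 or 3 of R183W vehicle and 11 without replicate 3 of WT WM1119, a library outside the comparison that enters the shared estimate of spread.

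In WT cells 6 replication genes rose with WM1119 and none fell. They were the chromatin assembly subunit CHAF1A, the catalytic and accessory polymerase delta subunits POLD1 and POLD2, the fork protection gene TIMELESS, DNA ligase LIG1 and the origin recognition subunit ORC6; 2.33% of all genes tested were called higher and 2.53% lower. Group means went from 81.4 to 158 CPM for CHAF1A, from 10.4 to 28.0 for POLD1 and from 41.01 to 87.3 for LIG1. The median log2 change of the 41 genes was 0.31, against -0.00 over all genes tested. At an unadjusted p under 0.05, 15 of the 41 were higher, as were 1591 of the 13980 genes tested. All 3 WM1119 libraries lay above all 3 vehicle libraries for 14 members (10.7% of all genes tested) and below them for DNA2 (11.6%). Role medians were 0.71 for polymerase delta, 0.60 for chromatin assembly, 0.58 for GINS and 0.55 for Okazaki fragment maturation, and -0.19 for the origin firing kinase. CHAF1A and POLD1 were the members called when replicate 2 or 3 of WT vehicle or replicate 2 of WT WM1119 was left out, and the ORC6 call was lost without any 1 of the 11 libraries. A fit to the WT libraries alone called none, with 12 higher at an unadjusted p under 0.05.

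**Figure D3:**
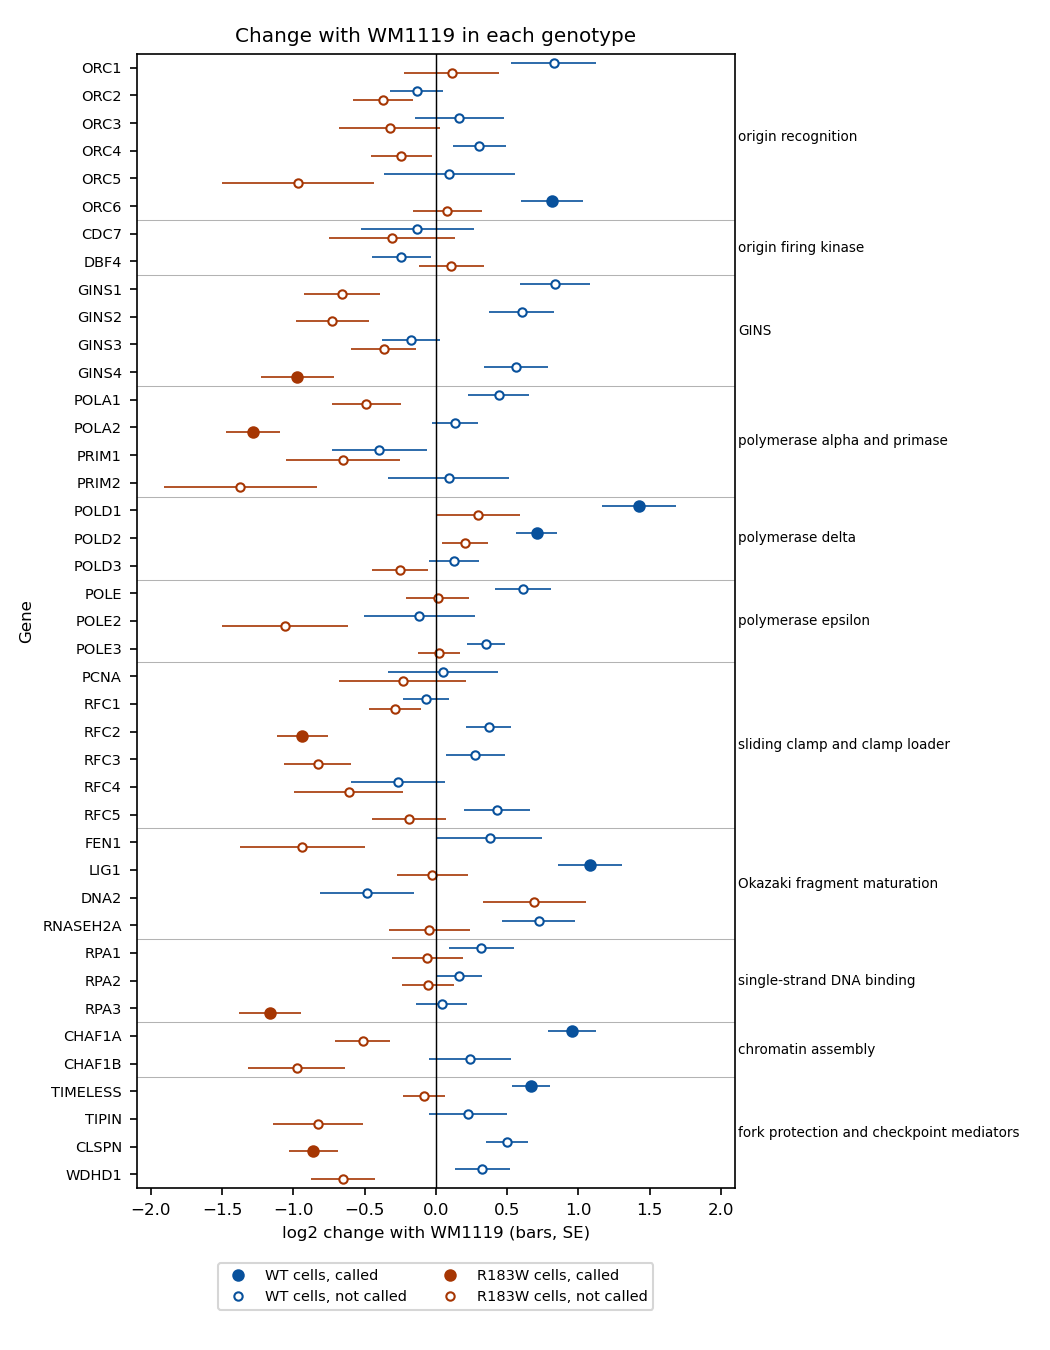
Log2 change with WM1119 in WT cells (blue) and R183W cells (red-brown) for each of the 41 replication genes by role; bars are SE, filled points were called at an edgeR adjusted p under 0.05. Filled red-brown points are POLA2, RPA3, RFC2, CLSPN and GINS4, all left of 0, and filled blue points are CHAF1A, POLD1, POLD2, TIMELESS, LIG1 and ORC6, all right of 0.

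Under vehicle, 7 replication genes were higher in R183W than in WT cells and none was lower. These were GINS1, GINS2 and GINS4 of GINS, RFC2 and RFC3 of the clamp loader, POLA2 and CHAF1A; 6.82% of all genes tested were called higher and 6.17% lower. The median log2 difference of the 41 genes was 0.30, against -0.01 over all genes tested. At an unadjusted p under 0.05, 13 of the 41 were higher, as were 1957 of the 13980 genes tested. The R183W libraries lay above all WT libraries for 14 members (19.3% of all genes tested) and below them for DNA2 (18.5%). The GINS median was 1.05, while the origin recognition and origin firing kinase medians were 0.15 and 0.12. GINS1, GINS2, RFC2 and RFC3 were called with any 1 library left out, and the count ran from 5 to 10. This comparison shares its vehicle libraries with both inhibitor comparisons, so the values are not independent of them.

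Under WM1119, 5 replication genes were lower in R183W than in WT cells. These were CLSPN, RPA3, CHAF1A, POLA2 and the origin recognition subunit ORC4, whose mean was also lower in R183W cells under vehicle, and none was higher; 3.92% of all genes tested were called lower and 4.64% higher. The median log2 difference of the 41 genes was -0.45, against -0.02 over all genes tested. At an unadjusted p under 0.05, 15 of the 41 were lower, as were 1653 of the 13980 genes tested. Both R183W libraries lay below all 3 WT libraries for 14 members (16.3% of all genes tested) and above them for DBF4 (18.5%). By edgeR none was called without replicate 1 of R183W WM1119 (10 were lower at an unadjusted p under 0.05), CLSPN alone was called without replicate 2 of that group, 3 were called without replicate 1 of WT WM1119 and 11 without replicate 3 of it. A fit to the WM1119 libraries alone called CLSPN, and edgeR without a filter on low counts called 8.

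Among the origin recognition genes, ORC6 and ORC4 passed a test. In R183W cells ORC6 (ENSG00000091651) had 29.04, 20.1 and 25.3 CPM with vehicle and 26.2 and 26.6 with WM1119, and in WT cells 14.3, 19.6 and 22.0 with vehicle and 34.9, 26.2 and 38.0 with WM1119. All WT WM1119 libraries lay above all WT vehicle libraries, and the R183W groups overlapped. The ORC6 change with WM1119 in WT cells was 0.81 (SE 0.22, edgeR adjusted p = 0.0459). ORC4 (ENSG00000115947) was at 37.3, 33.6 and 32.8 CPM in the R183W vehicle group, at 32.2 and 26.3 in the R183W WM1119 group, at 34.6, 40.4 and 45.2 in the WT vehicle group and at 51.4, 58.8 and 37.6 in the WT WM1119 group. The R183W WM1119 libraries lay below every WT WM1119 library, and the WT WM1119 libraries spanned the WT vehicle range in part. ORC4 differed by -0.76 between genotypes under WM1119 (SE 0.21, edgeR adjusted p = 0.0421), a call kept in 3 of 11 fits without 1 library. ORC1, which binds ATP within the complex, changed by 0.83 in WT cells (SE 0.30) without passing (edgeR adjusted p = 0.126). ORC2, ORC3 and ORC5 ranged from 2.48 CPM for ORC5 in its lowest library to 35.3 CPM for ORC2 in its highest, and none was called in any of the 5 comparisons.

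Of the origin firing kinase, neither gene was called in any comparison. DBF4 (ENSG00000006634) stood at 44.7, 53.1 and 45.0 CPM in R183W vehicle libraries, 52.1 and 50.4 in R183W WM1119 libraries, 55.1, 35.1 and 49.3 in WT vehicle libraries and 39.1, 29.5 and 50.4 in those of the WT WM1119 group. The R183W WM1119 libraries lay at or above the WT WM1119 libraries with no overlap, by a small margin. Its interaction was 0.35 (SE 0.31, edgeR adjusted p = 0.796), 1 of the 2 positive values among the 41. CDC7, the catalytic subunit, stayed between 2.89 and 7.43 CPM, with as few as 7 counts in a library.

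Among the roles, GINS had the largest median difference between genotypes under vehicle. In R183W cells GINS1 (ENSG00000101003) had 34.5, 31.5 and 33.5 CPM with vehicle and 20.6 and 21.4 with WM1119, and in WT cells 17.6, 14.9 and 10.5 with vehicle and 21.7, 20.3 and 35.9 with WM1119. GINS2 (ENSG00000131153) was at 29.7, 32.5 and 30.2 CPM in the R183W vehicle group, at 15.4 and 22.0 in the R183W WM1119 group, at 15.2, 13.7 and 13.9 in the WT vehicle group and at 23.5, 26.5 and 14.0 in the WT WM1119 group. GINS4 (ENSG00000147536) stood at 22.6, 22.9 and 28.8 CPM in R183W vehicle libraries, 12.0 and 13.3 in R183W WM1119 libraries, 13.2, 14.9 and 9.41 in WT vehicle libraries and 21.5, 18.0 and 15.3 in those of the WT WM1119 group. For each of the 3, every R183W vehicle library lay above every WT vehicle library and above both R183W WM1119 libraries. The vehicle differences were 1.21 for GINS1 (SE 0.24, edgeR adjusted p = 0.00423), 1.11 for GINS2 (SE 0.22, edgeR adjusted p = 0.00520) and 0.99 for GINS4 (SE 0.22, edgeR adjusted p = 0.00945, or 0.0507 without replicate 3 of R183W vehicle). With WM1119 in R183W cells GINS4 changed by -0.97 (SE 0.26, edgeR adjusted p = 0.0471), a call kept in 3 of 11 fits without 1 library, while the values of -0.66 for GINS1 and -0.73 for GINS2 did not pass (edgeR adjusted p = 0.189 and 0.129). In WT cells, WT WM1119 library 3 was the highest of its group for GINS1 and the lowest for GINS2 and GINS4. Without it the GINS2 change with WM1119 in WT cells was 0.81 and passed (edgeR adjusted p = 0.0238), against 0.60 with it (0.149). GINS3 ranged from 17.6 to 28.6 CPM and was called in no comparison.

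Polymerase alpha and primase were led by POLA2. In R183W cells POLA2 (ENSG00000014138) had 47.5, 47.5 and 48.9 CPM with vehicle and 20.9 and 18.4 with WM1119, and in WT cells 29.9, 27.3 and 33.5 with vehicle and 35.8, 35.2 and 28.1 with WM1119. The 3 R183W vehicle libraries lay close together and above all others, and both R183W WM1119 libraries lay below all others. POLA2 changed by -1.28 with WM1119 in R183W cells (SE 0.19, edgeR adjusted p = 0.00175) and by 0.14 in WT cells (SE 0.16, edgeR adjusted p = 0.671). The interaction was -1.42 (SE 0.25, edgeR adjusted p = 0.0274), the difference between genotypes 0.67 under vehicle (SE 0.16, edgeR adjusted p = 0.0129) and -0.75 under WM1119 (SE 0.19, edgeR adjusted p = 0.0249). The vehicle call was lost without replicate 2 of WT vehicle (edgeR adjusted p = 0.0698), and the WM1119 call without replicate 1 or 2 of either WM1119 group (edgeR adjusted p of up to 0.2). POLA1, the catalytic subunit, ranged from 24.7 to 69.4 CPM, the highest value being WT WM1119 library 3. Its change in R183W cells was -0.49 and in WT cells 0.44, and neither passed. The primase subunits PRIM1 and PRIM2 had few counts, down to 14 and 4 in a library, and PRIM2 changed by -1.37 in R183W cells (SE 0.54) without passing (edgeR adjusted p = 0.171).

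The polymerase delta genes POLD1 and POLD2 rose with WM1119 in WT cells. POLD1 (ENSG00000062822) was at 13.7, 9.84 and 14.4 CPM in the R183W vehicle group, at 14.9 and 16.3 in the R183W WM1119 group, at 13.4, 10.9 and 6.96 in the WT vehicle group and at 22.2, 32.9 and 28.9 in the WT WM1119 group. All WT WM1119 libraries lay above every library of the other 3 groups. POLD1 changed by 1.43 in WT cells (SE 0.26, edgeR adjusted p = 0.00782), the largest called change among the 41 genes in any inhibitor comparison by size, and by 0.30 in R183W cells (SE 0.29, edgeR adjusted p = 0.628). Its interaction of -1.13 (SE 0.39) did not pass (edgeR adjusted p = 0.347). POLD2 changed by 0.71 in WT cells (SE 0.15, edgeR adjusted p = 0.0148), over a range of 75.5 to 148 CPM across libraries, and POLD3 ranged from 41.5 to 64.3 CPM and was called nowhere. No polymerase epsilon gene was called. POLE (ENSG00000177084) stood at 25.9, 19.5 and 19.7 CPM in R183W vehicle libraries, 18.7 and 25.4 in R183W WM1119 libraries, 22.5, 22.3 and 19.9 in WT vehicle libraries and 27.9, 36.5 and 35.1 in those of the WT WM1119 group. For this catalytic subunit the WT WM1119 libraries lay above all others. The POLE change in WT cells was 0.61 (SE 0.19) and did not pass (edgeR adjusted p = 0.0871). POLE2 had as few as 8 counts in a library, and POLE3, at 95.6 to 145 CPM, changed by 0.35 in WT cells and 0.02 in R183W cells without passing.

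Clamp loader genes RFC2 and RFC3 were higher in R183W cells under vehicle. In R183W cells RFC2 (ENSG00000049541) had 38.9, 35.1 and 38.5 CPM with vehicle and 20.2 and 19.0 with WM1119, and in WT cells 21.9, 22.1 and 22.6 with vehicle and 30.8, 25.4 and 30.1 with WM1119. RFC3 (ENSG00000133119) was at 99.99, 71.1 and 81.3 CPM in the R183W vehicle group, at 48.2 and 46.5 in the R183W WM1119 group, at 51.5, 37.0 and 28.2 in the WT vehicle group and at 42.8, 45.0 and 54.1 in the WT WM1119 group. For both, R183W vehicle libraries lay above all others, and RFC2 in R183W WM1119 libraries lay below all others. RFC2 differed by 0.76 under vehicle (SE 0.15, edgeR adjusted p = 0.00549), changed by -0.94 with WM1119 in R183W cells (SE 0.18, edgeR adjusted p = 0.00973) and by 0.37 in WT cells (SE 0.16, edgeR adjusted p = 0.195). Its interaction was -1.31 (SE 0.24, edgeR adjusted p = 0.0361), called in 1 of 11 fits without 1 library. RFC3 differed by 1.12 under vehicle (SE 0.20, edgeR adjusted p = 0.00276), and its change of -0.83 with WM1119 in R183W cells (SE 0.23) missed the threshold (edgeR adjusted p = 0.0609). PCNA, the clamp itself, had 49.0, 22.3 and 14.9 CPM in the WT WM1119 libraries and 16.5, 24.0 and 44.4 in the WT vehicle libraries. The spread within each WT group was wider than the difference between any group means, and PCNA was called nowhere. RFC1, RFC4 and RFC5 were also called nowhere, at 131 to 215 CPM, 8.26 to 31.6 CPM and 23.0 to 46.1 CPM.

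In Okazaki fragment maturation, LIG1 was the 1 gene called. LIG1 (ENSG00000105486) stood at 58.4, 54.6 and 56.8 CPM in R183W vehicle libraries, 45.8 and 65.8 in R183W WM1119 libraries, 50.4, 41.9 and 30.7 in WT vehicle libraries and 64.6, 82.5 and 115 in those of the WT WM1119 group. WT WM1119 libraries lay above all WT vehicle libraries, with library 3 the highest, and the R183W groups overlapped. LIG1 changed by 1.08 in WT cells (SE 0.23, edgeR adjusted p = 0.0151), by 0.85 without WT WM1119 library 3 (edgeR adjusted p = 0.0164), and by -0.02 in R183W cells (SE 0.25, edgeR adjusted p = 0.97). FEN1, the flap endonuclease, had 87.4, 68.8 and 20.6 CPM in WT WM1119 libraries, so that library 3 lay below every other library. RNASEH2A, the catalytic subunit of RNase H2, changed by 0.72 in WT cells (SE 0.26) without passing (edgeR adjusted p = 0.124). DNA2, at 3.65 to 9.60 CPM, changed by 0.69 in R183W and -0.48 in WT cells, and its interaction of 1.17 (SE 0.49) did not pass (edgeR adjusted p = 0.467).

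RPA3 was the 1 subunit of replication protein A, which coats single-stranded DNA, to be called. In R183W cells RPA3 (ENSG00000106399) had 51.8, 56.5 and 62.3 CPM with vehicle and 23.0 and 27.8 with WM1119, and in WT cells 49.3, 49.2 and 53.4 with vehicle and 66.8, 48.5 and 39.6 with WM1119. Both R183W WM1119 libraries lay below all other libraries, and the remaining groups overlapped. RPA3 changed by -1.16 with WM1119 in R183W cells (SE 0.22, edgeR adjusted p = 0.00761) and by 0.04 in WT cells (SE 0.18, edgeR adjusted p = 0.922), and differed by -1.04 between genotypes under WM1119 (SE 0.22, edgeR adjusted p = 0.00923). Its interaction of -1.20 (SE 0.28) did not pass (edgeR adjusted p = 0.134), though it did without WT WM1119 library 3 at -1.38 (edgeR adjusted p = 0.00725). It passed in no other fit lacking 1 library, but did by DESeq2 and by edgeR without a filter on low counts. RPA1 and RPA2 changed by -0.06 and -0.05 in R183W cells.

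CHAF1A carried the largest called interaction among the members by size. CHAF1A (ENSG00000167670) was at 112, 139 and 126 CPM in the R183W vehicle group, at 88.1 and 87.9 in the R183W WM1119 group, at 94.2, 83.9 and 66.2 in the WT vehicle group and at 139, 139.7 and 195 in the WT WM1119 group. WT WM1119 libraries lay above all other libraries, by a narrow margin over R183W vehicle library 2, R183W vehicle libraries above all WT vehicle libraries, and the R183W WM1119 libraries within the WT vehicle range. CHAF1A changed by 0.95 with WM1119 in WT cells (SE 0.17, edgeR adjusted p = 0.00631) and by -0.51 in R183W cells (SE 0.19), which did not pass (edgeR adjusted p = 0.15). The interaction was -1.47 (SE 0.25, edgeR adjusted p = 0.0274), the vehicle difference 0.63 (SE 0.17, edgeR adjusted p = 0.0249) and the WM1119 difference -0.84 (SE 0.19, edgeR adjusted p = 0.0151). Without WT WM1119 library 3, the highest for this gene, the interaction was -1.32 (edgeR adjusted p = 0.00319) and the change in WT cells 0.78 (edgeR adjusted p = 0.00411). A fit without replicate 1 or 2 of R183W WM1119 keeps 1 library of that group and is given by size alone. In the other fits the interaction call was lost without replicate 2 or 3 of R183W vehicle or of WT vehicle. It was also lost without replicate 2 of WT WM1119, and with the replicate block (edgeR adjusted p = 0.167). Over all 11 fits without 1 library the interaction ran from -1.59 to -1.32 and the WM1119 difference from -0.92 to -0.68. The WM1119 call was lost with the replicate block and with only the groups compared (edgeR adjusted p of up to 0.0762). The vehicle call was lost without replicate 2 or 3 of R183W vehicle or of WT vehicle, with an edgeR adjusted p of up to 0.116. CHAF1B, its partner, changed by -0.98 in R183W cells (SE 0.34) and 0.24 in WT cells (SE 0.29) and was called nowhere.

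In the fork protection group, CLSPN and TIMELESS were called. CLSPN (ENSG00000092853) stood at 80.4, 108 and 119 CPM in R183W vehicle libraries, 54.7 and 58.3 in R183W WM1119 libraries, 76.5, 88.2 and 74.5 in WT vehicle libraries and 113, 110.2 and 116 in those of the WT WM1119 group. Both R183W WM1119 libraries lay below all other libraries, and WT WM1119 libraries lay above all WT vehicle libraries. CLSPN changed by -0.86 with WM1119 in R183W cells (SE 0.17, edgeR adjusted p = 0.0127) and by 0.50 in WT cells (SE 0.15), which did not pass (edgeR adjusted p = 0.0733). The call in R183W cells was lost without replicate 2 or 3 of R183W vehicle. With the replicate block it was also lost (edgeR adjusted p = 0.0527). That change ran from -1.03 to -0.74 over the 11 fits without 1 library. The interaction was -1.36 (SE 0.23, edgeR adjusted p = 0.0252), called in 3 of 11 fits without 1 library, and the genotype difference under WM1119 was -0.999 (SE 0.18, edgeR adjusted p = 0.00306). TIMELESS changed by 0.67 in WT cells (SE 0.13, edgeR adjusted p = 0.0120) and by -0.08 in R183W cells (SE 0.15), within 44.2 to 77.3 CPM. TIPIN, its partner, and WDHD1, which links polymerase alpha to the helicase, changed by -0.83 and -0.65 in R183W cells and were called nowhere.

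**Figure D4:**
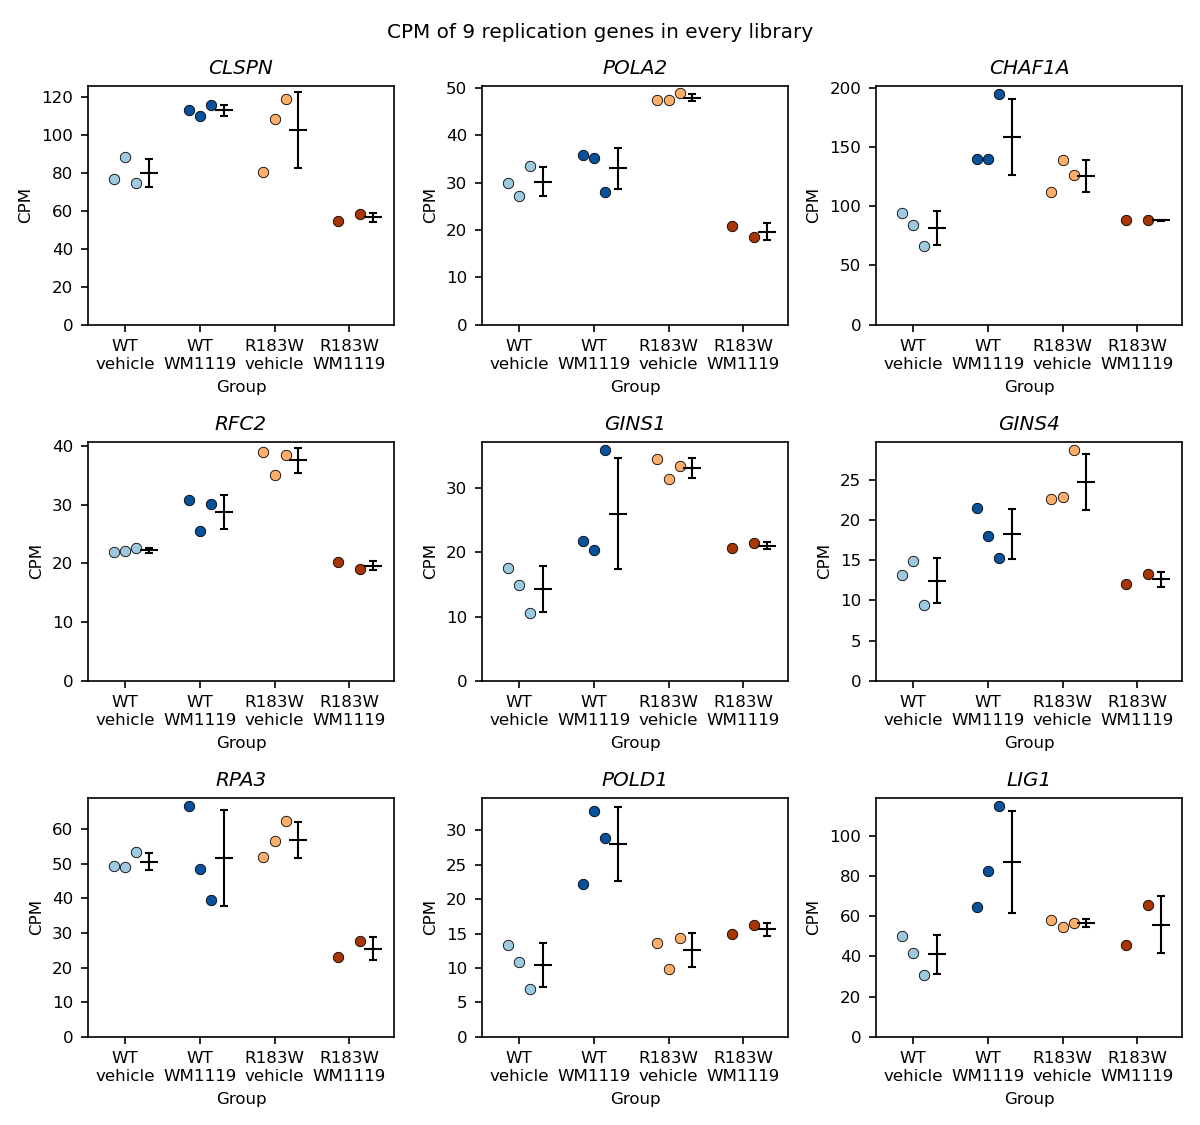
CPM of 9 replication genes in each library (points) by group, with the group mean and SD beside them (3 libraries a group, 2 for R183W WM1119). R183W WM1119 points lie below all others for CLSPN, POLA2, RFC2 and RPA3, and WT WM1119 points lie above all others for CHAF1A and POLD1.

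Other genes of DNA replication and the cell cycle were read beside the members, in 5 lists, 61 genes in all, each of which was tested. With WM1119 in R183W cells 9 were lower and none higher: 3 of 9 MCM and licensing genes, 2 of 16 other replisome and initiation genes, 2 of 8 genes of deoxynucleotide supply, 2 of 8 E2F and cyclin E genes and none of 20 G2 and mitosis genes (6 lower at an unadjusted p under 0.05). CDC6, which helps load MCM, changed by -0.96 and MCM3 by -0.83, MCM10 by -0.85 and DSCC1 by -0.82, DUT by -0.91, and E2F1 and RBL1 by -0.85 each. In WT cells 12 were higher and none lower: 6 of the MCM and licensing list, 2 other replisome genes, TK1 and 3 of the E2F list. The changes were 1.23 for MCM5, 1.12 for the licensing factor CDT1, 1.07 for RECQL4, 0.70 for RNASEH2C, 0.88 for TK1, 0.96 for E2F2 and 0.93 for CCNE2. Under vehicle 16 were higher in R183W cells, among them CCNE1 (1.32), CHTF18 (1.19), TK1 (1.15), CDC6 (1.11), E2F1 (1.09), MCM4 (1.01), TOP2A (0.90), MCM10 (0.85), TYMS (0.72) and AURKB (0.71). Under WM1119 10 were lower in R183W cells, among them RBL1 (-1.25), FOXM1 (-1.24), MCM6 (-1.21), RRM2 (-1.09), DUT (-1.04) and DSCC1 (-1.02). The interaction was called lower for 7, of which CDC6 (-1.79), E2F1 (-1.68), MCM7 (-1.67), RBL1 (-1.40), MCM10 (-1.37) and TK1 (-1.33) are named. Of all genes tested, 2.65% were called lower with WM1119 in R183W cells and 2.33% higher in WT cells. Between genotypes, 6.82% were called higher in R183W cells under vehicle and 3.92% lower under WM1119. The interaction was called lower for 0.193%. The edgeR counts of the 61 also moved with the libraries fitted. With only the groups compared, 24 of the 61 were lower with WM1119 in R183W cells, 2 were higher in WT cells and 2 were lower in R183W cells under WM1119. With WM1119 in R183W cells none of the 61 was lower when replicate 2 of R183W vehicle or either replicate of R183W WM1119 was left out, and 21 were lower without replicate 3 of WT WM1119. The WT count ran from 4 without replicate 2 of WT vehicle to 15 without replicate 1 of WT WM1119. The vehicle count ran from 11 without replicate 2 of WT vehicle to 21 without replicate 3 of WT WM1119, and the WM1119 count from 2 without replicate 2 of R183W WM1119 to 26 without replicate 3 of WT WM1119. The interaction count was 0 when replicate 2 or 3 of R183W vehicle, replicate 2 of WT vehicle or either replicate of R183W WM1119 was left out, 18 without replicate 3 of WT WM1119 and 2 to 9 without any other single replicate.

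The labels and processing notes do not say whether counting used strand, so reads from stretches shared by overlapping genes may not have been told apart. Overlap here is of whole gene spans, introns included. How many reads fall in shared stretches was not measured. In the GENCODE annotation CHAF1A overlaps UBXN6 on the opposite strand (5473 counts for CHAF1A over the 11 libraries and 6661 for UBXN6), as GINS2 does GSE1 (1076 and 2597 counts) and RPA3 does UMAD1 (2425 and 166 counts). ORC4, FEN1, PRIM1, RFC4, RFC5, RNASEH2A, RPA1, CHAF1B and DBF4 also overlap a gene holding at least 5% of their counts. CLSPN, POLA2, RFC2, RFC3, GINS1, LIG1, POLD1 and POLE overlap no such gene.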

How the data were processed

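RNA-seq of 11 HEC50B libraries in 4 groups was read from a table of estimated counts per gene that the authors deposited. STAR, RSEM and the hg19 build are named in the submitters' processing notes; their versions, roles and the annotation are not given there. The deposited counts were whole numbers in every cell, so rounding changed none. Per the labels, the molecule is polyA RNA and the kit ScriptSeq Complete Gold. The labels number the replicates without saying that they are separate cultures, so a p-value reflects the spread among these libraries alone, and that spread may be technical. Symbols came from GENCODE release 29, which matched 51959 of 57736 IDs by Ensembl ID. Its build differs from hg19, so it was used only for names and for which genes overlap. Promoter sequences and coordinates are from RefSeq on GRCh38.p14 and bear on no count.

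A single fit by edgeR 4.0.16 in R 4.3.3 (quasi-likelihood F test, two-sided, TMM factors, filterByExpr, 1 mean per group, no replicate block) used all 11 libraries and 13980 genes, with a biological coefficient of variation of 19.6%. P-values were adjusted by Benjamini-Hochberg over all genes tested and called under 0.05. SE is the size of the log2 change divided by the square root of F. The SE takes in the spread among libraries, while the floor of 3 counts covers counting error only. Alternatives were DESeq2 size factors or upper-quartile factors, DESeq2 1.42.0, limma-voom in limma 3.58.1, no filter on low counts, only the groups compared, a replicate block and each library left out. The script was tested on simulated data. The members and lists were chosen with earlier results of these data known. Full values are given for members called in the interaction, for the 4 largest called changes of each other comparison, and otherwise for the member of a role with the smallest interaction p. From the other lists up to 2 called genes per list and comparison are named, those with the largest changes. Values of further members were chosen after they were seen. The values of 1 gene of the deoxynucleotide supply list are not reported here.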

Additional observations from a re-analysis of the deposited data

Results flagged for a closer look

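The test of the difference between the inhibitor effects in R183W and WT cells, edgeR's quasi-likelihood interaction, picked out 4 replication genes. On the log2 scale the R183W effect minus the WT effect was -1.36 for CLSPN (edgeR adjusted p = 0.0252), -1.42 for POLA2 (edgeR adjusted p = 0.0274), -1.47 for CHAF1A (edgeR adjusted p = 0.0274) and -1.31 for RFC2 (edgeR adjusted p = 0.0361). With each of the 11 libraries left out in turn, the call was kept in 4 fits for CHAF1A, 3 for CLSPN, 2 for POLA2 and 1 for RFC2, and the interaction stayed negative in all of them.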

How the results depend on the processing

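No called change of a member described in full reversed under the alternatives run. Uncalled changes of DBF4, GINS2, LIG1, ORC6, POLE, RFC3 and RPA3 changed sign in at least 1 comparison and alternative, as POLE did with WM1119 in R183W cells (0.01, and -0.01 without replicate 3 of WT WM1119). Counts under the alternatives, here and above, are given without the share of all genes tested called in the same fit. They are therefore not read as particular to the replication genes. Members called with WM1119 in R183W cells numbered 5, and 13 when only the groups compared were fitted. In WT cells the count was 6, and 0 with only the groups compared (12 higher at an unadjusted p under 0.05). Under WM1119 the genotype count was 5, 8 with no filter and 1 with only the groups compared. The interaction count was 4, 9 by DESeq2 and 11 with no filter. Leaving out 1 library gave 1 to 11 members for the inhibitor in R183W cells, 2 to 8 in WT cells, 5 to 10 for genotype under vehicle, 0 to 11 under WM1119 and 0 to 8 for the interaction. Where a group keeps 1 library, that library is assumed to vary like the other groups. Medians of the members kept their sign throughout, from -0.88 to -0.66 for the interaction. The interaction has no fit to fewer groups. Pairing by replicate number was checked on log CPM less each gene's group mean. By that measure 2 of 15 same-numbered pairs from different groups correlated above 0.1. Of 11 libraries, 2 correlated best with a library of their own number among the other groups. With so few libraries in a group these residuals are not independent, so the check cannot exclude a pairing. With the replicate block the counts were 3 for the inhibitor in R183W cells, 4 in WT cells, 6 for genotype under vehicle, 2 under WM1119 and 0 for the interaction (16 negative at an unadjusted p under 0.05). Of the 61 other replication and cell cycle genes, edgeR with the block called none lower with WM1119 in R183W cells (18 lower at an unadjusted p under 0.05), 5 higher in WT cells, 14 higher for genotype under vehicle, 4 lower under WM1119 and none for the interaction (27 negative at an unadjusted p under 0.05). With no filter 14 of the 61 were lower in R183W cells, 19 were lower and 2 higher under WM1119, and 15 were lower for the interaction. DESeq2 gave 17 lower and 1 higher under WM1119 and 14 lower for the interaction. Depth limits the lowest genes, such as PRIM2 with 4 counts and ORC5 with 6 in a library.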
